A study of Mus musculus with 57 samples.

Results

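Blastocysts labelled Taf13 MUT were compared with the blastocysts labelled HET and WT of the same mouse line. These libraries were 11 of the 57 libraries of the series, chosen by line and stage alone: 3 MUT, 4 HET and 4 WT embryos at embryonic day 3.5 (E3.5), with HET and WT pooled as 8 controls. Of 56557 genes in the deposited table, 49113 were on autosomes, and 11534 of these were at 1 FPKM or more in at least 3 of the 11 libraries and were tested. FPKM is fragments per kilobase of transcript, scaled by a factor set for each library. The series profiled mouse embryos of Taf5, Taf12 and Taf13 lines, which its design text calls knockouts, to compare their gene expression. Each library came from the total RNA of a single embryo that received no treatment. The labels give the genotypes only as MUT, HET and WT, with no description of the allele and no word on which embryos shared a litter. All p-values therefore measure the spread between these embryos.

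TAF13 is a subunit of TFIID, the general transcription factor that binds core promoters together with the TATA-binding protein TBP and places RNA polymerase II at the start site. Within TFIID it pairs with TAF11 through a histone-fold domain. The blastocyst consists of the outer trophectoderm, which forms the placental lineages, and the inner cell mass, which separates into the pluripotent epiblast and the primitive endoderm. GATA6, SOX17 and GATA4 are transcription factors of the primitive endoderm, and CDX2 and EOMES are transcription factors of the trophectoderm.

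Taf13 itself was not lost from the MUT libraries. Its level was 12.9, 30.7 and 29.6 FPKM in MUT 1, 2 and 3, against a lowest of 22.4, a median of 29.5 and a highest of 46.7 FPKM in the 8 controls. MUT 1 was below every control, and MUT 2 and MUT 3 lay within the control range. The mean was 24.4 ± 10.0 FPKM in MUT (SD, n = 3) and 32.1 ± 8.38 FPKM in controls (SD, n = 8), a log2 fold change of −0.44 ± 0.30 (SE) with an adjusted p of 0.593 in limma. The transcript level thus does not separate the libraries labelled MUT from the others, and whether the reads fall outside an altered part of the gene cannot be told from a value per gene. Every direction below is drawn from the labels.

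Recovered reads per library numbered 8.62 to 9.19 M in MUT and 8.93 to 10.31 M in controls. MUT libraries had 12886 to 13197 genes above 0, and control libraries had 13717 to 14406. The groups did not overlap, and the means differed by −1013 genes (two-sided exact permutation test over 165 choices of 3 libraries, p = 0.00606, the smallest this design allows; 0.0182 after adjustment over 6 library measures). At equal read depth the ranges were 12847 to 13123 genes in MUT and 13571 to 14187 in controls. Across genes, the correlation of MUT libraries with each other was 0.872 to 0.881, that of MUT with control libraries 0.870 to 0.893 and that between controls 0.888 to 0.921. The mitochondrially encoded share of reads was 1.88 ± 0.296% in MUT and 1.86 ± 0.129% in controls (SD, n = 3 and n = 8). Reads of Y-linked genes numbered 88, 2282 and 15 in MUT 1, 2 and 3, against 60 in HET 2 and 1485 to 3383 in the other 7 controls, so sex was unevenly spread over the groups. Summed reads of 25 maternal tissue and blood markers were 286 to 1162 in MUT and 472 to 1196 in controls. Of those markers, 21 to 23 were at 0 in MUT libraries and 19 to 23 in control libraries, and Hba-a1, Hbb-bs and Ptprc were at 0 in all 11. The part that detection and sex played in the gene results was not tested beyond the fits given here.

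**Figure D1:**
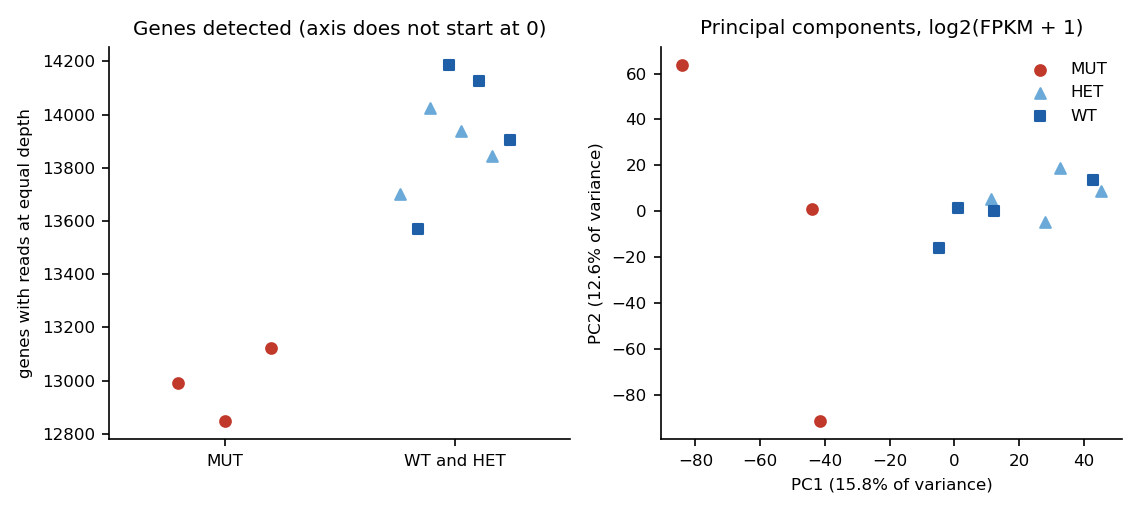
Left, genes with at least 1 read at equal read depth in each library; right, the first principal component (15.8% of the variance) against the second (12.6%) of log2(FPKM + 1), with MUT, WT and HET marked by shape. The 3 MUT libraries had 12847 to 13123 genes, all fewer than the 13571 to 14187 of the controls, and took first-component scores of −84.1, −41.6 and −44.0, against −4.6 to 45.4 in controls. On the second component they lay far apart from each other, at 63.8, −91.6 and 0.9, against −16.0 to 18.8 in controls.

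Among the 11534 genes, 29 (0.251%) passed an adjusted p under 0.05 (Benjamini-Hochberg over all genes tested, limma on log2(FPKM + 1), with no fold limit) and are called changed. Of these, 25 (0.217%) fell in MUT and 4 (0.0347%) rose. The filter did not treat the directions alike. A gene at 0 in MUT could reach it in any 3 of the 8 controls, while a gene at 0 in controls had to reach it in all 3 MUT libraries. Without a filter, 16 genes fell and 4 rose. With reads in place of FPKM, limma's voom called 13 genes, of which 4 fell and 9 rose, and 7 of the 13 were among the 29. The median log2 fold change of all tested genes was −0.04. Without a correction for multiple tests, 1402 genes (12.2%) had p under 0.05 in limma, 519 of them higher in MUT (4.5%) and 883 lower (7.66%). With WT alone as control 7 genes were called, 2 of them among the 29, with HET alone 16, of which 5 were, and with the Y-linked level as a covariate 13, of which 12 were. In every one of the 29 called genes the 3 MUT libraries lay apart from the 8 controls. Over all tested genes, every MUT library was below every control in 229 genes (1.99%) and above every control in 190 (1.65%). Of the 25 lower genes, 8 had no read in any MUT library. With each of the 11 libraries left out in turn, 11 of the 29 genes were called every time: Rtn1, Adck2, Ccser2, Rnf17, Serpinh1, Stfa1, Ets2, Magi1, Mast4, Sox17 and Ttyh3.

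The genes that fell included transcription factors of the primitive endoderm. Sox17, which encodes an endoderm transcription factor, was at 0 in all 3 MUT libraries, against a lowest of 3.21, a median of 7.46 and a highest of 14.4 FPKM in controls. That was 0 reads in MUT and 5177 reads in controls, at least 199-fold lower when MUT is set at 3 reads per library, a floor that covers counting error only. The log2 fold change was −3.07 ± 0.38 (SE, adjusted p = 0.00628 in limma). Fitted log2 changes of such genes depend on the 1 FPKM added before the logarithm and are not bounds. In whole embryos, fewer cells of a type and less RNA per cell cannot be told apart.

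Gata4, a zinc-finger factor of the same lineage, was also at 0 in every MUT library, against 2.62 (lowest), 19.1 (median) and 31.6 FPKM (highest) in controls. It was at least 35.4-fold lower, with 0 reads in MUT and 923 in controls (log2 fold change −3.82 ± 0.65, adjusted p = 0.0435 in limma). The Gata4 call was close to the threshold: with 1 library left out it passed only without WT 3 or without HET 3. Serpinh1 encodes the collagen chaperone of the endoplasmic reticulum and was present in every library. Its level was 3.05, 5.35 and 7.01 FPKM in MUT, against 49.2, 125 and 274 FPKM as the lowest, median and highest control. The mean was 5.14 ± 1.99 FPKM in MUT and 139 ± 77.4 FPKM in controls (SD, n = 3 and n = 8), 27-fold lower (log2 fold change −4.37 ± 0.47, adjusted p = 0.00283 in limma).

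Ets2, a transcription factor of the ETS family that is used in trophoblast, had 0 reads in MUT, against 7.62, 20.2 and 44.3 FPKM as the lowest, median and highest control. The fall was at least 56-fold (log2 fold change −4.32 ± 0.51, adjusted p = 0.00555 in limma). Grhl1, a grainyhead-like factor of epithelia, fell to 70.7, 95.8 and 43.3 FPKM in MUT, against 135, 281 and 422 FPKM (lowest, median, highest) in controls. That was 4.28-fold (log2 fold change −2.06 ± 0.36, adjusted p = 0.0446 in limma). Taf1d, whose product belongs to the TBP-containing factor of RNA polymerase I and not to TFIID, was at 35.6, 35.3 and 29.4 FPKM in MUT and at 51.3, 70.3 and 83.5 FPKM as the lowest, median and highest control. Its MUT values were all below the lowest control, and the fall was 2.03-fold (adjusted p = 0.0435 in limma).

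**Figure D2:**
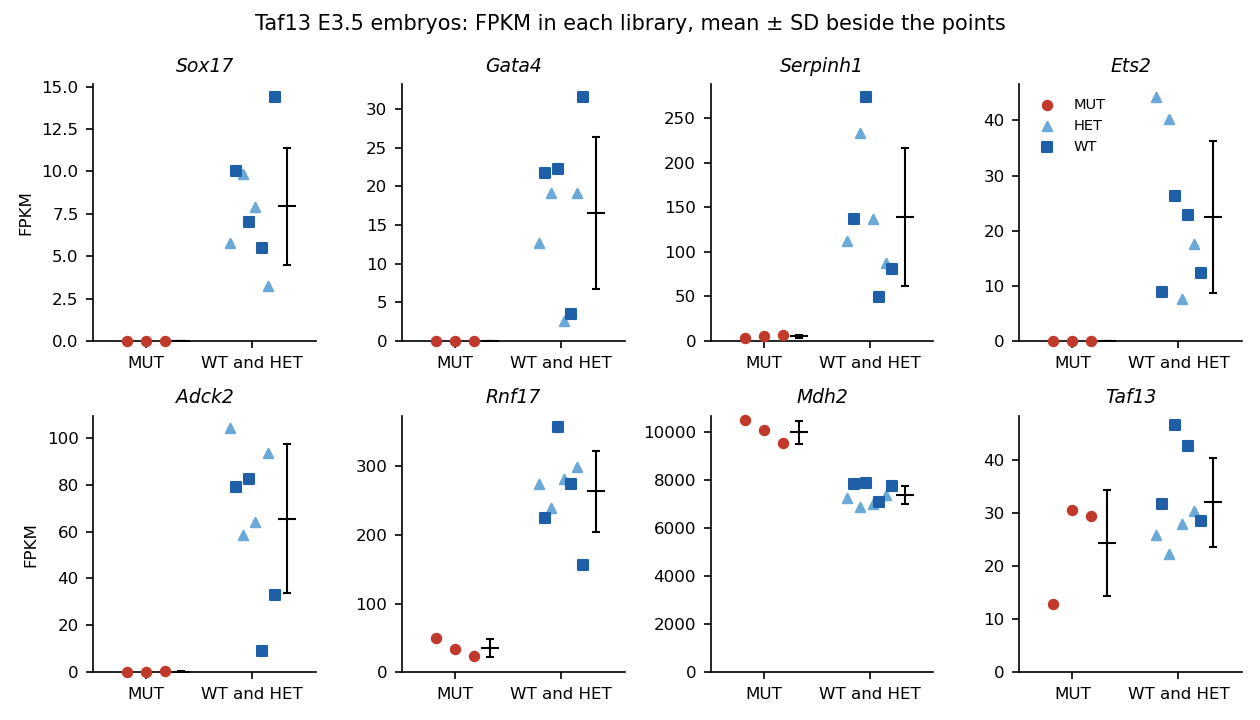
FPKM of 8 genes in each library, with MUT to the left of the controls, WT as squares and HET as triangles, and the mean ± SD of each group. Sox17, Gata4 and Ets2 were at 0 in the 3 MUT libraries, Mdh2 was at 9540 to 10500 FPKM in MUT against 6870 to 7870 in controls, and Taf13 overlapped between the groups.

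The largest fitted fall was that of Adck2, which encodes a mitochondrial protein of the kinase-like family that also includes a coenzyme Q synthesis factor. It was at 0, 0 and 0.673 FPKM in MUT, against 9.16, 71.7 and 104 FPKM as the lowest, median and highest control. A single read was found in MUT and 809 in controls, a 281-fold difference with a 95% counting interval of 50.4 to 11100 (log2 fold change −5.54 ± 0.62, adjusted p = 0.00367 in limma). Rtn1, a reticulon of the endoplasmic reticulum, had 0.335, 0 and 0 FPKM in MUT, against 10.1, 16 and 35.6 FPKM (lowest, median, highest) in controls. With 2 reads in MUT and 923 in controls it was 161-fold lower, with a 95% counting interval of 44.3 to 1330 (adjusted p = 0.00124 in limma). Rnf17, a tudor-domain protein of germ cells, was well measured in both groups, at 49.7, 33.5 and 23.6 FPKM in MUT and at 156, 274 and 356 FPKM as the lowest, median and highest control. It was 7.39-fold lower (log2 fold change −2.88 ± 0.26, adjusted p = 0.00124 in limma).

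Bcar1, an adaptor of integrin signalling, had 0, 0.0465 and 2.71 FPKM in MUT and a median of 11.1 FPKM in controls (13.5-fold lower, adjusted p = 0.0171 in limma). Fhod1, a formin that acts on actin filaments, had 0.185, 2.30 and 0.344 FPKM in MUT and a median of 12.5 FPKM in controls (12.8-fold lower, adjusted p = 0.0171 in limma). Ssh3, a slingshot phosphatase of the cofilin pathway, had 5.85, 0 and 1.72 FPKM in MUT and a median of 28.5 FPKM in controls (12.5-fold lower, adjusted p = 0.0171 in limma). In each of these genes the highest MUT library was below the lowest control, which was at 7.53 FPKM for Bcar1, 6.14 for Fhod1 and 18.4 for Ssh3. Magi1, a scaffold of cell junctions, was 46.9-fold lower (adjusted p = 0.00283 in limma). Plscr1, a phospholipid scramblase, was 8.43-fold lower (adjusted p = 0.0467 in limma).

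Gmds, of the GDP-fucose pathway, had a control median of 10.2 FPKM and was at least 21.6-fold lower (adjusted p = 0.0171 in limma). Pgap1, which deacylates GPI anchors in the endoplasmic reticulum, had a control median of 9.73 FPKM and was at least 60.1-fold lower (adjusted p = 0.0352 in limma). Ttyh3, a tweety-family membrane protein, had a control median of 31.5 FPKM and was at least 12.5-fold lower (adjusted p = 0.00916 in limma). For these 3 genes MUT was at 0 in every library and no control was at 0. Stfa1, a stefin A protease inhibitor, had 0, 0 and 3.12 FPKM in MUT and a control median of 22.8 FPKM (20.9-fold lower, adjusted p = 0.00628 in limma). Stefin A genes are near-identical copies of each other, so its reads may be split between them and its value is uncertain.

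The remaining lower genes moved by smaller folds or at lower levels. Impa1, an inositol monophosphatase, had 22.4, 5.78 and 9.45 FPKM in MUT and a control median of 53.1 FPKM (4.09-fold lower, adjusted p = 0.0178 in limma). Commd4, a COMM-domain protein, was at 65.5, 68.8 and 79.8 FPKM in MUT and had a control median of 160 FPKM (2.22-fold lower, adjusted p = 0.0268 in limma). Ccser2 was 4.16-fold lower, BC002059 4.67-fold and Prrc1 2.26-fold, with adjusted p of 0.00283, 0.0352 and 0.0435 in limma. Gm11427 and Tmem205 had no MUT read and were at least 12.4-fold and at least 11.4-fold lower. FPKM levels were not set against each other between genes, since 1 read was worth 0.0127 to 0.966 FPKM among the 29 called genes.

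Of the 4 genes that rose, Mdh2 had the most reads and the smallest change. It encodes the mitochondrial malate dehydrogenase of the citric acid cycle. Mdh2 was at 10500, 10100 and 9540 FPKM in MUT, against 6870, 7330 and 7870 FPKM as the lowest, median and highest control. The groups did not overlap, and the mean was 10000 ± 475 FPKM in MUT and 7390 ± 395 FPKM in controls (SD, n = 3 and n = 8) (log2 fold change 0.44 ± 0.06, adjusted p = 0.0171 in limma). The Mdh2 call was lost in 6 of 26 settings, among them, with adjusted p in limma of 0.234 with WT alone, 0.0646 with HET alone, 0.115 under quantile normalization, 0.239 without the trend and robust moderation and 0.0572 without MUT 1. Uap1l1, related to the enzyme that makes UDP-N-acetylglucosamine, was at 199, 176 and 180 FPKM in MUT and at 64.8, 87.7 and 109 FPKM as the lowest, median and highest control (2.06-fold higher, adjusted p = 0.0435 in limma). Mast4, a microtubule-associated kinase, was at 14.7, 4.30 and 4.63 FPKM in MUT and above 0 in a single control, WT 4, at 1.02 FPKM. It was 62-fold higher, with 151 reads in MUT and 7 in controls (adjusted p = 0.0126 in limma). AA474408 was 18.3-fold higher, at 7.39, 9.34 and 16.8 FPKM in MUT and at most 2.26 FPKM in controls (adjusted p = 0.0171 in limma).

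The naming rule added 7 higher genes that did not pass the test. Atad2, a bromodomain ATPase of replicating chromatin, had a log2 fold change of 1.26 and an adjusted p of 0.0644 in limma. Brip1, the helicase partner of BRCA1, had a log2 fold change of 1.32 and an adjusted p of 0.0838 in limma. The remaining 5 of these 7 were Pcyt2 of phosphatidylethanolamine synthesis (0.96), Plbd2, a lysosomal phospholipase-B-like protein (0.88), the adiponectin receptor Adipor2 (0.81), Aprt of adenine salvage (0.63) and the zinc-finger gene Zfp653 (3.19), with adjusted p of 0.0838 to 0.0948 in limma.

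The promoters of 3 lower genes and of the higher gene Mdh2 are shown because TFIID binds core promoters and these genes differed clearly between the groups. Each window runs from 250 bases before to 50 bases after the start, 5′ to 3′ on the gene's strand, from RefSeq on build GRCm38.p6, and not the GRCm39 of the submitters' processing notes. Capitals mark GGGCGG, the GC box.
Serpinh1 chr7:99353190-99353489 (minus strand): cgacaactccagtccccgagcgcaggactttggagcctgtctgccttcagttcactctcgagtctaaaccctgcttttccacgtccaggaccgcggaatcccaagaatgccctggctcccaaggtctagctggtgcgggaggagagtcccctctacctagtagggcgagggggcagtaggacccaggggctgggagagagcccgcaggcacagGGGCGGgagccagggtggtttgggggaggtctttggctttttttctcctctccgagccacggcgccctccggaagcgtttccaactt
Ets2 chr16:95702157-95702456 (plus strand): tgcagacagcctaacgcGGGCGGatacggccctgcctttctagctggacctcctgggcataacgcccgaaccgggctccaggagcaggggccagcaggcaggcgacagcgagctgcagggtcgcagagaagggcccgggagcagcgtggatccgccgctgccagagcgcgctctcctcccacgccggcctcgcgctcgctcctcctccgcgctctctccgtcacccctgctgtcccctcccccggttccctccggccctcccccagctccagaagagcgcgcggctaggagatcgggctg
Adck2 chr6:39573626-39573925 (plus strand): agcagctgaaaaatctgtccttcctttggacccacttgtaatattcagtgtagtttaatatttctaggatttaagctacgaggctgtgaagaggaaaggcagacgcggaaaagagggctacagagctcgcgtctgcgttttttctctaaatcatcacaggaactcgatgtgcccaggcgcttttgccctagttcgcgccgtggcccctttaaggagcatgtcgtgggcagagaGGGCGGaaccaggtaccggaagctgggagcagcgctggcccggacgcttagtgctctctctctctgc
Mdh2 chr5:135778399-135778698 (plus strand): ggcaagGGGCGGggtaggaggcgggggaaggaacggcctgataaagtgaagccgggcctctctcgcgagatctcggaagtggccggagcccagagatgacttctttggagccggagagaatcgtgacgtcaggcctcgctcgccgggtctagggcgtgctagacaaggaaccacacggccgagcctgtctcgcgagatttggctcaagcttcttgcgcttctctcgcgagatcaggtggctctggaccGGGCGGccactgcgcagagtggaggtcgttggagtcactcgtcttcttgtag
The GC box began 37 bases before the start in Serpinh1, 233 in Ets2, 17 in Adck2, and 244 and 2 in Mdh2. The windows were 62.3% G or C in Serpinh1, 71.7% in Ets2, 53% in Adck2 and 62.7% in Mdh2. RefSeq windows were matched by symbol for 19 of the 25 lower genes and for 2 of the 4 higher genes. Each motif was searched on both strands on its own, whether or not it overlapped another. GGGCGG was in 17 of the 19 (89.5%), against 69.2% of the 8541 tested genes with a window and 38.2% of all genes with one. CCAAT was in 11 of the 19 (57.9%), against 43.5% of tested genes and 41.1% of all genes. TATAAA was in 1 of the 19 (5.3%), in Ccser2, against 8.1% of tested genes and 15.7% of all genes. Starting 36 to 20 bases before the start on the gene's strand, where a TATA box lies, it was in 0 of the 19, against 1.2% of tested genes and 2.2% of all genes. These shares are descriptions of the letters in the windows.

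Of the 20 primitive endoderm genes listed, 17 were tested (Foxa2, Sox7 and Fst did not reach the filter). Of these, 3 fell, Sox17, Gata4 and Serpinh1, against 0.217% of all tested genes. The list was chosen with earlier results of these data known, so its shares describe these genes and are not an independent test. The median log2 fold change was −0.52 over the 17 genes and −0.04 over all tested genes. In 4 of the 17 every MUT library was below every control, as in 1.99% of all tested genes. The fourth was Sparc, a matrix protein of the parietal endoderm, at 6.38, 9.94 and 8.28 FPKM in MUT and at 11.7, 22.6 and 31.5 FPKM as the lowest, median and highest control, with an adjusted p of 0.167 in limma. The basement membrane gene Lamb1 was at 78.4, 18.9 and 21.9 FPKM in MUT and at 50, 96.4 and 181 FPKM as the lowest, median and highest control, and overlapped between the groups (adjusted p = 0.174 in limma). Pdgfra, a receptor of primitive endoderm cells, was at 6.93, 9.91 and 4.62 FPKM in MUT and at 9.50, 14.6 and 22.2 FPKM as the lowest, median and highest control (adjusted p = 0.21 in limma).

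Gata6, the early factor of the lineage, was not called. It was at 627, 523 and 233 FPKM in MUT, against 276, 455 and 516 FPKM as the lowest, median and highest control. MUT 1 and MUT 2 were above every control and MUT 3 was below every control (log2 fold change 0.04, adjusted p = 0.975 in limma). Lrp2, the endocytic receptor megalin, was at 80.9, 54 and 83.6 FPKM in MUT and at 30.6, 43.8 and 57.6 FPKM as the lowest, median and highest control (log2 fold change 0.75, adjusted p = 0.207 in limma). Its partners Cubn and Amn had log2 fold changes of −0.52 and 0.85, and the adaptor Dab2 had 0.23. The collagens Col4a1 and Col4a2 had 0.58 and 0.71, the laminin Lama1 −1.40, and the FGF receptors Fgfr1 and Fgfr2 −0.07 and 0.24, none past the test. The list's count differed between settings: with WT alone, or with voom, 0 of the 17 genes were called lower, and with HET alone 1 was. WT alone or HET alone also left fewer control libraries. The list's median log2 fold change was −0.62 with WT alone, −0.18 with HET alone and −1.11 with voom.

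**Figure D3:**
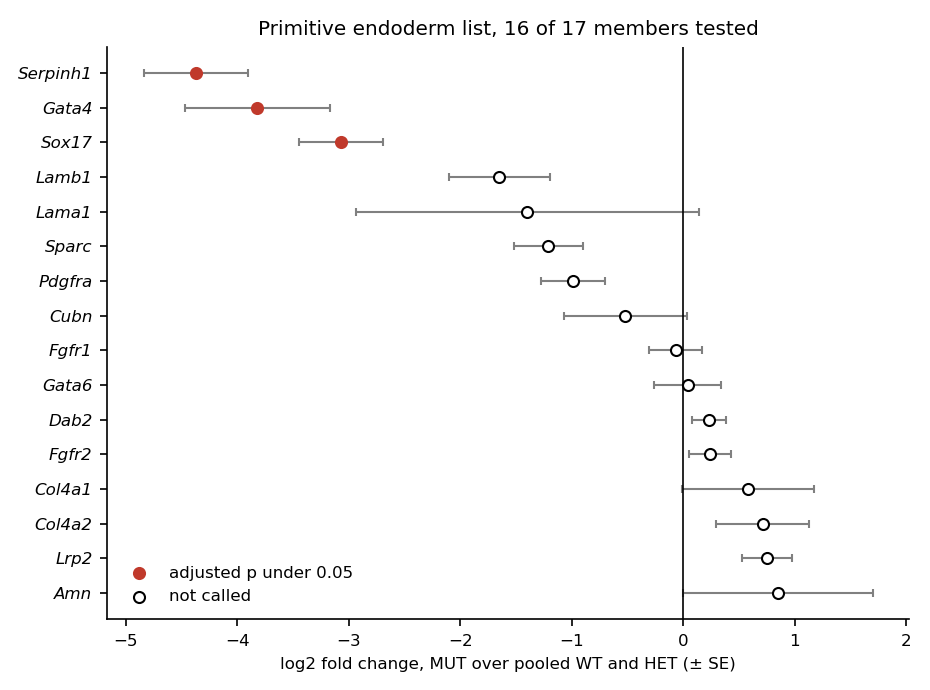
Log2 fold change of MUT over controls ± SE for 16 of the 17 tested primitive endoderm genes, with genes past an adjusted p under 0.05 in red. Serpinh1 (−4.37), Gata4 (−3.82) and Sox17 (−3.07) are in red, and Gata6 (0.04) is near 0.

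The trophectoderm list had 29 tested genes and none called, with a median log2 fold change of −0.18. At unadjusted p under 0.05 in limma 3 were higher and 8 lower, against 4.5% higher and 7.66% lower of all tested genes. Eomes had the smallest p, at 55.9, 126 and 160 FPKM in MUT and at 222, 326 and 505 FPKM as the lowest, median and highest control (log2 fold change −1.64, adjusted p = 0.075 in limma). All MUT values of Eomes were below the lowest control, while Cdx2, the other trophectoderm factor, was at 147, 140 and 139 FPKM in MUT and at 120, 161 and 213 FPKM as the lowest, median and highest control (adjusted p = 0.735 in limma). Gata3 overlapped as well, at 799, 749 and 661 FPKM in MUT and 509, 865 and 1100 FPKM as the lowest, median and highest control. Cldn6, a claudin of tight junctions, was at 86.2, 88.8 and 93.0 FPKM in MUT and at least 110 FPKM in controls (log2 fold change −0.66, adjusted p = 0.173 in limma). Plet1 was at 745, 457 and 454 FPKM in MUT and at most 367 FPKM in controls (log2 fold change 0.92, adjusted p = 0.186 in limma). The water channel Aqp8 was at 0, 16.7 and 6.42 FPKM in MUT and at 10.8, 56.6 and 246 FPKM as the lowest, median and highest control (adjusted p = 0.174 in limma).

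None of the 24 tested genes of the naive pluripotency and epiblast list was called, and their median log2 fold change was −0.11. Pou5f1, which encodes OCT4, was at 1830, 1750 and 1460 FPKM in MUT and at 1300, 1470 and 1800 FPKM as the lowest, median and highest control (log2 fold change 0.15, adjusted p = 0.65 in limma). Nanog was at 117, 62.5 and 68.7 FPKM in MUT and at 39.3, 52.3 and 74.6 FPKM as the lowest, median and highest control (adjusted p = 0.422 in limma). Dppa3, a maternal and germ-cell factor that protects DNA methylation, was at 3100, 3040 and 3760 FPKM in MUT, all above the highest control of 2480 FPKM (log2 fold change 0.54, adjusted p = 0.112 in limma). Tdgf1, the Nodal coreceptor, was at 879, 1330 and 907 FPKM in MUT, all below the lowest control of 1400 FPKM (log2 fold change −0.70, adjusted p = 0.132 in limma).

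The lists of TFIID, polymerase II and general factor, Mediator and SAGA genes held no gene called in limma. Taf1d of the polymerase I factor, called lower, is on none of them. Among 13 tested TFIID subunits and paralogs the median log2 fold change was 0.04. The smallest p was that of Tbpl1, a paralog of TBP (log2 fold change −0.79, adjusted p = 0.295 in limma), and Tbp itself had 0.57 (adjusted p = 0.47). The 32 tested genes for polymerase II and the general factors had a median of 0.16, the 29 Mediator subunits 0, and the 20 tested subunits of SAGA, a coactivator that shares TAFs with TFIID, −0.10. Supt3 of SAGA, which carries histone folds like those of TAF11 and TAF13, had a log2 fold change of −2.27 without passing the test.

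Most of the DNA replication genes were on the higher side and most of the cytosolic ribosomal protein genes on the lower side, again with none called. Of 36 tested replication genes, 31 had a positive log2 fold change, the median was 0.27, and 8 were higher and 0 lower at unadjusted p under 0.05 in limma. Over all tested genes 46.3% had a positive log2 fold change, and 4.5% were higher and 7.66% lower at that p. Mcm5, a subunit of the replicative helicase, was at 4220, 3900 and 2880 FPKM in MUT and at 1240, 2040 and 2410 FPKM as the lowest, median and highest control (log2 fold change 0.96, adjusted p = 0.112 in limma). The sliding clamp gene Pcna had a log2 fold change of 0.55, and the clamp loader genes Rfc2 and Rfc5 had 0.49 and 0.38. Of 75 ribosomal protein genes, 54 had a negative log2 fold change, the median was −0.10, and 18 were lower and 0 higher at unadjusted p under 0.05 in limma, against 53.7% of all tested genes negative and 7.66% lower at that p. Rpl23a had −0.52 and Rps19 −0.40. Many ribosomal protein genes have near-identical pseudogenes, so their values are uncertain.

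The lists of stress, metabolism and rapid response genes held no gene called in limma either. Mdh2 of the citric acid cycle, called higher, is on none of these lists. The 14 tested immediate early genes had a median log2 fold change of −0.78, with Fosl2 of the AP-1 family at −3.72 (adjusted p = 0.119 in limma) and Klf6 at −1.08 (adjusted p = 0.215). The 26 tested p53 targets had a median of −0.19, with Ccng1 at −1.41 and Sesn2 at −1.28. The 17 genes of the integrated stress response had −0.24, with the serine synthesis gene Psph at −1.02, and the 18 apoptosis regulators had 0.23. Nuclear genes of oxidative phosphorylation (57 tested) had a median of −0.11 and glycolysis genes (20 tested) −0.13. Gapdh, which has many near-identical pseudogenes, was at 175, 176 and 177 FPKM in MUT, all below the lowest control of 214 FPKM (log2 fold change −0.51, adjusted p = 0.0948 in limma). The 27 tested imprinted genes had a median of −0.40.

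Pooling HET with WT was examined in a fit of the 3 groups. In HET against WT, limma called 0 of the 11534 genes, and 499 (4.33%) had unadjusted p under 0.05. Sox17 averaged 6.68 ± 2.85 FPKM in HET and 9.23 ± 3.91 FPKM in WT (SD, n = 4 each). Serpinh1 averaged 142 ± 63.7 FPKM in HET and 135 ± 99.4 FPKM in WT (SD, n = 4 each). For the 29 genes called in MUT, the adjusted p of HET against WT was 0.999 in limma throughout. Uncalled genes such as Taf13, Eomes and Sparc had the same value, so it tells nothing particular about the 29. Among the 29, every HET library was above every WT library in Uap1l1 and Impa1, and below every WT library in Stfa1. HET and WT overlapped in the other called genes. The share of genes so separated over all tested genes was not counted, so these separations tell nothing particular about the 29. The absence of calls with n = 4 each does not show that HET and WT were alike.

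The 29 genes were next read in libraries that had no part in choosing them. In Taf12 E3.5 blastocysts (3 MUT against 10 pooled HET and WT) limma called 434 of 12279 genes (3.53%), 276 of them lower (2.25%). Of the 25 genes lower in Taf13 MUT, 21 were lower there too, with a median log2 fold change of −1.31, against −0.08 and 55.6% of genes lower over all genes tested. Taf1d was the single gene of the 25 called lower in both (log2 fold change −1.36, adjusted p = 0.0196 in limma in Taf12). Sox17 was at 0 in the 3 Taf12 MUT libraries, but 0 to 8.89 FPKM in their controls (log2 fold change −2.06, adjusted p = 0.104 in limma). Serpinh1 averaged 29 ± 50.2 FPKM in Taf12 MUT and 65.8 ± 42.3 FPKM in its controls (SD, n = 3 and n = 10), with overlap between the groups (adjusted p = 0.103 in limma). Mdh2 rose in Taf12 MUT as well (log2 fold change 0.71, adjusted p = 0.000595 in limma).

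A direct test of the difference between the Taf13 and Taf12 effects, each against its own controls, called 31 of 12651 genes (0.245%). Adck2 was the single one of the 29 genes among them, with a difference of −7.14 on the log2 scale (adjusted p = 0.00253 in limma). It averaged 83.8 ± 69.6 FPKM in Taf12 MUT and 27.9 ± 17.7 FPKM in Taf12 controls (SD, n = 3 and n = 10). For the other 28 genes a difference between the lines did not pass the test, which does not show that the lines act alike. Leaving out Taf12 WT 2 left 6 genes called in this test and leaving out Taf12 MUT 3 gave 97, so its count depends on single libraries.

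In Taf5 E3.5 blastocysts (4 MUT against 3 WT) limma called 12 of 10466 genes (0.115%) and 855 had unadjusted p under 0.05. None of the 29 was among the 12. Of the 24 lower genes tested there, 17 were lower, with a median log2 fold change of −0.45, against −0.04 and 53.1% of genes lower over all genes tested. Sox17 averaged 3.35 ± 2.14 FPKM in Taf5 MUT and 6.51 ± 2.15 FPKM in Taf5 WT (SD, n = 4 and n = 3), an adjusted p of 0.703 in limma.

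In the same line at E6.5, 2 MUT embryos were set against 13 pooled HET and WT embryos, and limma called 3224 of 13864 genes (23.3%). Of the 13864 genes, 1726 were called higher in MUT and 1498 lower, and the counts below stand against these. Of the 24 lower genes tested there, 7 were lower, with a median log2 fold change of 0.42, against 0.04 and 47.9% of genes lower over all genes tested. In limma 2 of the 24 were called lower, Taf1d (log2 fold change −1.08, adjusted p = 0.0475 in limma) and Commd4 (−0.71, adjusted p = 0.0331 in limma). Another 7 were called higher, Adck2, Gata4, Sox17, Fhod1, Ssh3, Ccser2 and Pgap1. Sox17 averaged 53.5 ± 29.6 FPKM in MUT and 19.8 ± 3.65 FPKM in controls at E6.5 (SD, n = 2 and n = 13), a log2 fold change of 1.29 (adjusted p = 0.00225 in limma). Gata4 averaged 285 ± 238 FPKM in MUT and 77.9 ± 28.8 FPKM in controls (adjusted p = 0.0198 in limma). Of the 20 primitive endoderm genes tested at E6.5, 10 were called higher and 1 lower. Of the 25 naive pluripotency and epiblast genes tested there, 15 were called lower and 2 higher, with a median log2 fold change of −1.62. Pou5f1 averaged 0 FPKM in MUT and 438 ± 135 FPKM in controls (SD, n = 2 and n = 13). Whether a changed share of cell types in the whole embryo moved the endoderm values was not tested. Uap1l1 (log2 fold change 1.44, adjusted p = 0.000187 in limma) and Mdh2 (0.35, adjusted p = 0.0449 in limma) were higher at both stages. With E6.5 MUT 1 left out, the number of genes called there was 724. Levels at E6.5 and in other lines stand in separate blocks of the deposited table and were compared within a block only, and no test of the difference between stages was run.

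**Figure D4:**
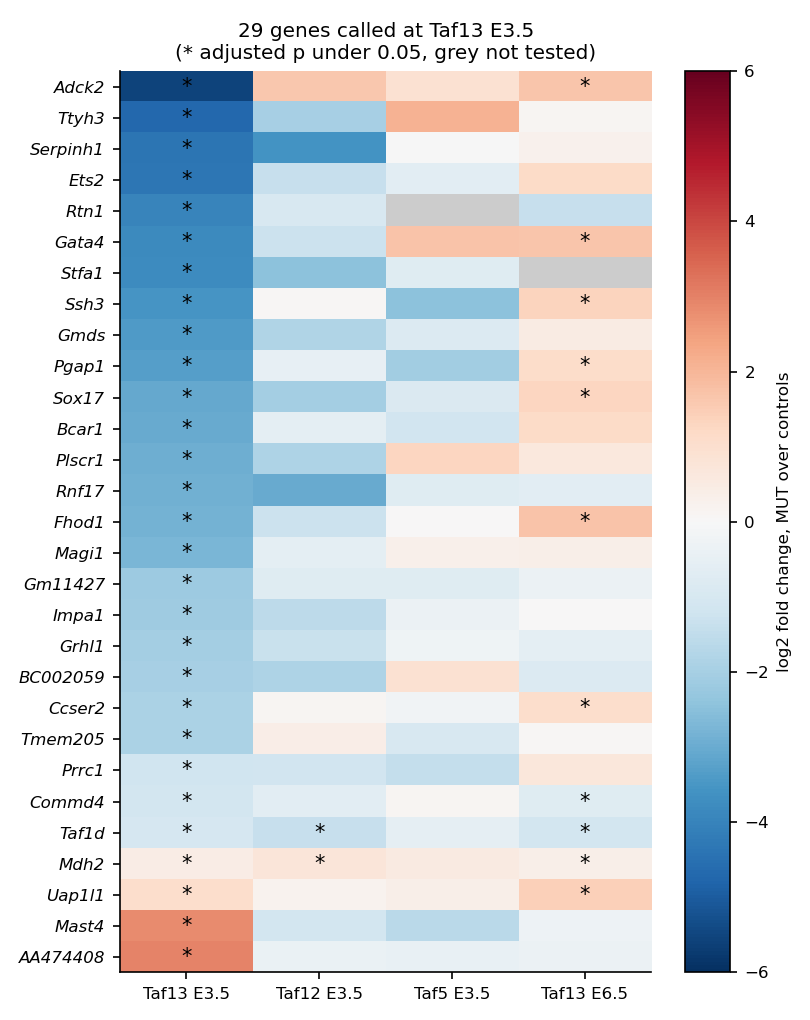
Log2 fold change of MUT over controls for the 29 genes called at Taf13 E3.5, in Taf13 E3.5, Taf12 E3.5, Taf5 E3.5 and Taf13 E6.5, with a star at an adjusted p under 0.05 and grey where a gene was not tested. Most of the 25 lower genes are also lower in Taf12 (21 of 25) and Taf5 (17 of 24), 7 of 24 are lower at Taf13 E6.5, and Sox17 and Gata4 are higher there.

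The authors' deposited table of the same comparison holds 504 of 11715 autosomal genes at an adjusted p under 0.05 (4.3%), 127 higher and 377 lower in MUT. Of the 29 genes, 28 passed in the authors' deposited table, all with the same sign, which is 96.6% of the 29 and 5.56% of the 504. The exception was Mast4, with an adjusted p of 0.0831 in the authors' deposited table. Taf13 has a log2 fold change of −0.39 and an adjusted p of 0.623 in the authors' deposited table. Eomes (log2 fold change −1.56, adjusted p = 3.7e-05), Mcm5 (0.94, adjusted p = 0.000611) and Sparc (−1.35, adjusted p = 0.00182) passed in the authors' deposited table but not in limma on log2(FPKM + 1). Among lists without a call in limma, 3 polymerase II and general factor genes and 1 Mediator gene passed there, all higher. So did 1 SAGA gene, lower, and 0 TFIID genes. Of the replication genes 3 passed as higher and 0 as lower, and of the ribosomal protein genes 8 as lower and 0 as higher. Of the trophectoderm genes 2 passed as higher and 5 as lower, and of the nuclear oxidative phosphorylation genes 2 as higher and 4 as lower. The heat shock and chaperonin list had 3 higher and 1 lower. In the primitive endoderm list, which had calls in limma, 1 passed as higher and 6 as lower.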

How the data were processed

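The submitters' processing notes name STAR 2.7.6a, the build GRCm39, Trimmomatic 0.39, FastQC 0.11.9, DESeq2 1.36.0 and R 4.2.1, and no sources used here name the read counter or its use of strand. The authors deposited FPKM per gene and library, in a block for each line and stage, and a table of their own comparison with the base mean (mean normalized count), the log2 fold change and its SE, and the p-value and adjusted p-value. Reads per gene and library were recovered from the smallest FPKM steps and the authors' base mean. For each gene a multiplier was sought at which all values of 500 or fewer lay within 0.05 of a whole number. In each of the 11 libraries 99.97 to 99.98% of these values did so, a share that the search for the multiplier largely sets.

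limma 3.58.1 (R 4.3.3, data.table, version 1.17.8) was run two-sided on log2(FPKM + 1) with a mean-variance trend and robust moderation, for genes at FPKM 1 or more in at least 3 libraries (2 at E6.5). p-values were Benjamini-Hochberg adjusted over all genes tested, and autosomal genes were counted. Fold changes on this scale understate those of low genes; plain folds are ratios of the groups' mean FPKM, or, where MUT had 1 to 3 reads in all, of summed reads. A group at 0 was set at 3 reads per library. The script was tested on simulated data. Sensitivity runs changed the pseudocount, filter, controls, scaling, model, covariates and libraries.

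The naming rule took Taf13, in each direction the 15 or fewer called genes with the largest change at 5 FPKM or more in the higher group, without overlap between groups and without a clone or predicted name (filled to 10 with uncalled genes), and up to 4 members of each list by p. AA474408, Magi1, Gm11427, Impa1, Grhl1, BC002059, Ccser2, Tmem205, Prrc1, Commd4, Taf1d, the other primitive endoderm genes and several list members fall outside it and were named after their values were seen. Members and lists were chosen with earlier results of these data known. FPKM levels were compared within a gene only, since a single read was above 1 FPKM in 6.65% of tested genes. Of the primitive endoderm list, 1 tested gene is counted in the totals and not reported here.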

Additional observations from a re-analysis of the deposited data

Results flagged for a closer look

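The Taf13 and Taf12 effects on Adck2 differed, by −7.14 on the log2 scale (adjusted p = 0.00253 in limma). With each of the 24 libraries of both lines left out in turn, the difference was −7.60 to −6.51.

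Within the WT or HET group of 4, single libraries stood apart from the other 3 by Dixon's criterion in 14 of 190 groups checked, and chance gives about 1 in 20. Among the called genes, Rtn1 was at 35.6 FPKM in HET 4 (15.8 to 18.2 in the other HET libraries), Mdh2 at 7090 in WT 3 (7780 to 7870 in the other WT libraries), Ccser2 at 25 in WT 4 (31 to 31.7) and Mast4 at 1.02 in WT 4 (0 in the others). With the other 3 libraries at 0, any level above 0 meets the criterion, so the Mast4 flag tells nothing further.

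Several of the other values came from WT 2. There Asns was at 2230 FPKM (252 to 548 in the other WT libraries), Dppa5a at 11900 (7760 to 8330), Hsp90aa1 at 1940 (2340 to 2370), Plet1 at 171 (336 to 367) and Zfp653 at 7.93 (0 to 0.436). In WT 3, Cldn6 was at 161 (128 to 133) and Tbp at 21.9 (10.5 to 12). In HET 3, Bax was at 590 (698 to 711 in the other HET libraries) and Rfc2 at 896 (703 to 719). Birc5 was at 1530 in HET 1 (1410 to 1420).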

How the results depend on the processing

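No called gene changed direction under those of the 26 settings that tested it, and Rtn1 was the single gene called in all of them. The settings on other lines, 10 recovered reads in place of the FPKM filter and the library counts were chosen after seeing the data. The 29 calls (25 lower, 4 higher) became 13 (10 lower) with a pseudocount of 5, 7 (6 and 1) with WT alone, 16 (13 lower) with HET alone, 13 (4 and 9) with voom and 13 (11 and 2) with the Y-linked level as a covariate. Calls of lower genes numbered 16 without a filter, and those of higher genes 2 with a stricter filter and 7 with the filter on recovered reads. Same-numbered replicates correlated at −0.0566 to 0.00358, so the numbers do not pair the samples, and a replicate block gave 10 calls (9 and 1). Leaving out 1 library gave 20 to 43 calls (17 to 37 lower, 3 to 6 higher), with 14 (without MUT 1 or MUT 3) to 25 of the 29 genes kept. It gave 0 to 2 for HET against WT (1 without WT 3 or HET 3, 2 without HET 4), 216 to 389 for Taf12 (270 without WT 2, 216 without MUT 1), 1 to 6 for Taf5 and 724 to 3486 for Taf13 at E6.5. The difference between Taf13 and Taf12 gave 6 to 97: without a Taf13 library 18 (WT 3), 7 (WT 4), 17 (HET 1), 7 (HET 2), 17 (HET 4) and 18 (MUT 3), and without a Taf12 library 6 (WT 2), 9 (WT 4), 15 (HET 5), 74 (MUT 2) and 97 (MUT 3). Taf5 had 6 calls with a pseudocount of 5. The gap in detected genes was −1099 to −943.4 with 1 library left out and −926.4 at equal depth. Sox17 missed the threshold with a pseudocount of 5 (adjusted p = 0.0627 in limma), WT alone (0.0673), HET alone (0.077), voom (0.0829) and the block (0.0814, and 0.0941 for Mdh2), Serpinh1 with WT alone (0.077) and voom (0.367), each in limma. Among uncalled genes, log2 changes reversed for Amn (−0.48) and Col4a1 (−0.16) with the Y covariate, Cdx2 (0.05) and Fgfr1 (0.02) with WT alone, Fgfr1 with median centring (0.03), and, with 1 library left out in turn, Fgfr1 (range −0.40 to 0.16), Gata6 (−0.24 to 0.47) and Lama1 (−2.60 to 0.47). The causes were not tested. Where a gene had 0 reads in MUT, depth limits the fold to the lower bound given.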
